A study of Mus musculus with 4 samples.

Results

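The genes described here encode the receptors for epidermal growth factor (EGF) and hepatocyte growth factor (HGF) and their ligands in mouse liver. They were the EGF receptor gene Egfr, its relative Erbb3, the HGF receptor gene Met, the EGF-family ligand genes Egf, Tgfa, Hbegf, Areg, Ereg and Btc, and the HGF gene Hgf. Probes were chosen by matching the transcript accession of each probe to these 10 symbols, which gave 15 of the 56605 probes on the array, or 10 of the 22047 genes with a usable probe. The 10 genes were picked with earlier results of these arrays known, so their levels are a description and support nothing by themselves. Total RNA of whole liver from fasted male mice was hybridized to 4 arrays, 1 for each group. The groups were aging diabetic mice treated with astragalus polysaccharide (APS, extracted from astragalus root, a herbal drug) together with metformin, aging diabetic mice treated with metformin (a biguanide that lowers blood glucose), untreated aging diabetic mice, and natural aging mice given no drug. The series title calls the diabetes type 2. The titles of all 4 samples carry a time of 60 d, whose starting point is not stated. Strain, age, the way diabetes was produced, the doses, and whether an RNA came from 1 mouse or a pool are not given in the sources used here.

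In the liver, EGF-family ligands are made as membrane-bound precursors, are cut free by proteases, and bind receptors of the ERBB family on hepatocytes and other cells. HGF is secreted, largely by stellate and other non-parenchymal cells, as an inactive precursor that proteases cleave before it binds MET on hepatocytes. Both receptors are tyrosine kinases that act through RAS and the ERK cascade, and both are known for driving hepatocyte growth after tissue loss and for protecting hepatocytes from death. ERBB3 has little kinase activity of its own and works in pairs with other ERBB receptors.

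In short, the 3 receptor genes, by the probe that stands for each, were at least 2-fold lower with metformin than in natural aging. By its other probe, Met fell short of 2-fold. Of all genes compared in this pair, 4.71% were at least 2-fold lower and 13.0% higher. Egfr was also at least 2-fold lower in untreated diabetic mice than in natural aging, as were 6.09% of all genes. Every ligand probe well above background on the metformin array stood higher there than on the aging diabetic array. For Ereg and Btc this was a bound, within the log2 error of the dim aging diabetic spot. Areg, which encodes amphiregulin, a ligand of EGFR made after tissue injury, had the largest of these differences at 12.8-fold. Of all genes compared between these 2 arrays, 11.9% were at least 2-fold higher with metformin. With APS plus metformin, Areg, Egf and Ereg were at least 2-fold lower than with metformin alone, and Egfr was at least 2-fold higher by 2 of its 3 probes. Of all genes compared in this pair, 12.4% were at least 2-fold lower and 2.37% higher. With another background correction (normexp), only Areg of the 3 ligands stayed at least 2-fold lower. With 1 array per group no test across animals was possible, and each difference is one between 2 arrays. A difference of 1 log2 or more in size is called at least 2-fold higher or lower.

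Upstream sequences are shown for Areg, the member with the largest difference, and for Egfr, Egf and Hgf, which each differed at least 2-fold in several comparisons. Ereg did so too, partly as bounds, but no upstream window was found for it. The sequences are the 250 bases before the annotated start, from RefSeq on build GRCm38.p6, written 5′ to 3′ on the strand of the gene. Capitals mark matches to 5 motifs searched on both strands, which are the cAMP response element TGACGTCA, the AP-1 site TGANTCA, the GC box GGGCGG, the TATA box TATAAA and the STAT5 site TTCNNNGAA. The windows are chr5:91139349-91139598 on the plus strand for Areg, chr3:129755323-129755572 on the minus strand for Egf, chr5:16553245-16553494 on the plus strand for Hgf and chr11:16751953-16752202 on the plus strand for Egfr. Egf and Hgf have 2 annotated starts each, and the window of the outermost start is printed.
Areg: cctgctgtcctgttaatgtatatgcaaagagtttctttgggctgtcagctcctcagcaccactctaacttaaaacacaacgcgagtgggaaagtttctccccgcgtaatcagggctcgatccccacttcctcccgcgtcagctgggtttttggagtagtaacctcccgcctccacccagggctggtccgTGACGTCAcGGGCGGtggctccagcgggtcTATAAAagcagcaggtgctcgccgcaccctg
Egf: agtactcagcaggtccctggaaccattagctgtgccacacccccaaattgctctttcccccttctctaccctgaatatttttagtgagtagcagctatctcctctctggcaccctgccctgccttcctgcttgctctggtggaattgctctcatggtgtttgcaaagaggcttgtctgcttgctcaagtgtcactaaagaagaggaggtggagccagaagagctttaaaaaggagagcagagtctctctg
Hgf: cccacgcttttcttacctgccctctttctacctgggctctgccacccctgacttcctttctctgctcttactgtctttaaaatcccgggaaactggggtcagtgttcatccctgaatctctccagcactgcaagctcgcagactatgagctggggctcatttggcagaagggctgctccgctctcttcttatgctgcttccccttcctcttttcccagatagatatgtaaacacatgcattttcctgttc
Egfr: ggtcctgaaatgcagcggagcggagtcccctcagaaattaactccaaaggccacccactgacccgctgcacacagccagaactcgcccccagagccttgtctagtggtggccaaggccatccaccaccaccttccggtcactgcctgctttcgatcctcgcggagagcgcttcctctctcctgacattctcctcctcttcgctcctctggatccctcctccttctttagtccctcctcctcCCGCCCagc

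The Areg window held the full cAMP response element beginning 61 bases before the start, a GC box beginning 52 bases before it, and a TATA box beginning 31 bases before it. None of these matches overlap. Over 32851 upstream windows of the same length in the mouse genome, 1.55% held the cAMP response element, 32.7% a GC box and 12.4% a TATA box. The Egfr window held a GC box on the reverse strand, while the Egf and Hgf windows held none of the 5 motifs. The AP-1 site was found in 6.75% and the STAT5 site in 7.02% of all windows. Among members with a window, the AP-1 site was in that of Met, and the STAT5 site in none. A match to these letters describes the sequence and is not evidence that a factor binds there. On the same build Egfr lies at chr11:16752203-16913907, Egf at chr3:129677574-129755322, Hgf at chr5:16553495-16619439, Erbb3 at chr10:128567523-128589635, Met at chr6:17463349-17573980 and Tgfa at chr6:86195038-86275744. Ereg (chr5:91074617-91093649), Areg (chr5:91139599-91148432) and Btc (chr5:91357261-91402994) lie within 328 kb of one another, and Hbegf is on chromosome 18.

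Values below are log2 of the background-subtracted signal of a probe relative to the 75th percentile of its array, with the error that the image analysis gave for the spot. This error covers the measurement of the spot, not the spread between mice. Probes differ in their hybridization, so levels of different probes or genes are not set against each other. For a probe that passed detection on 1 array of a pair, a bound is given (at least so many fold). It sets the detected level against the detection limit of the other array, or against the probe's own signal there where that was higher. The arrays held 59305 spots that were not controls, of which 33668 to 37402 were well above background, and none was saturated. The 6 usable hepatocyte markers of the 8 listed (Apoa1 and Cps1 had no usable probe) were well above background on all arrays, and albumin (Alb) stood at 4.12, 3.78, 4.11 and 4.23 log2 on the APS plus metformin, metformin, aging diabetic and natural aging arrays.

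**Figure D1:**
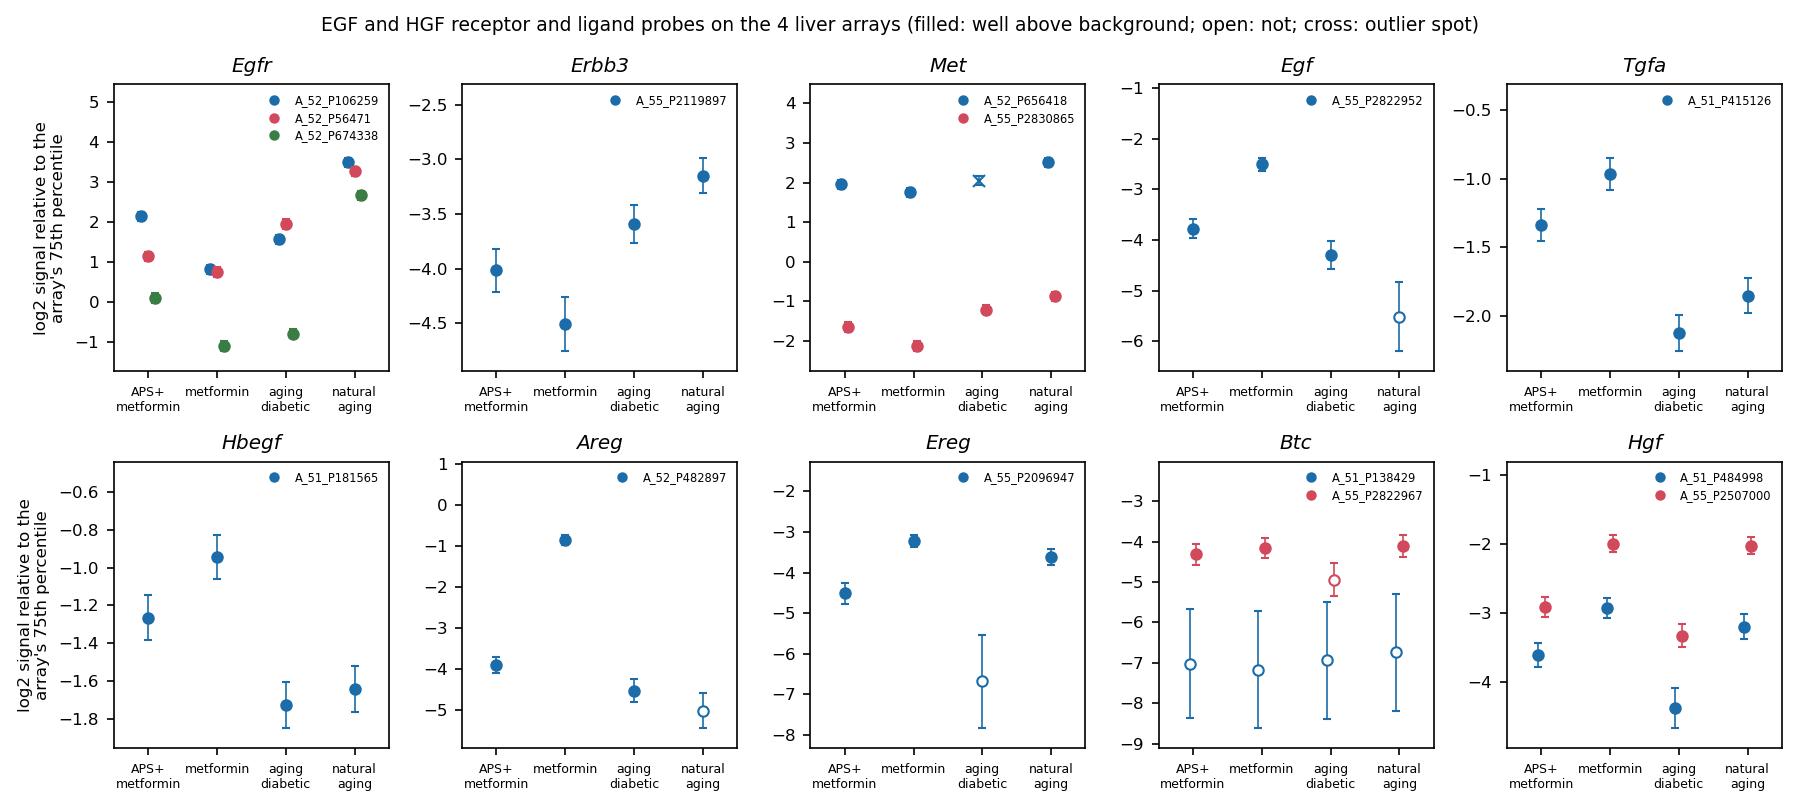
Log2 signal relative to the 75th percentile of the array (vertical axis, scaled separately in each panel) for every probe of the 10 genes on the 4 arrays, with the error of the spot; 1 colour is 1 probe. The 3 Egfr probes were highest on the natural aging array, and Areg stood apart on the metformin array at -0.84 log2.

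Egfr, the receptor through which hepatocytes respond to EGF, TGF-alpha and amphiregulin, was measured by 3 probes. Probe A_52_P106259, the brightest on average and the one that stands for the gene, had 2.14 ± 0.12 log2 on the APS plus metformin array, 0.81 ± 0.12 on the metformin array, 1.57 ± 0.12 on the aging diabetic array and 3.49 ± 0.12 on the natural aging array. Probe A_52_P674338, listed under the same transcript accession, had 0.10, -1.10, -0.79 and 2.66 log2 in that order of arrays. Probe A_52_P56471, listed under another Egfr transcript, had 1.14, 0.75, 1.95 and 3.27 log2. All 3 probes were well above background on every array, with the natural aging array highest and the metformin array lowest.

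The aging diabetic array was 3.79-fold lower than the natural aging array by A_52_P106259 (95% interval of the measurement 3.04 to 4.73), 10.96-fold lower by A_52_P674338 (8.76 to 13.7) and 2.50-fold lower by A_52_P56471 (2.00 to 3.12). Of 14453 genes compared, 224 were lower by more than the probe that stands for Egfr. The direction was shared by the 3 probes, and the size was not, since every pair of probes differed beyond the 95% interval of their combined error. Between the metformin and the aging diabetic array the difference was -0.75 log2 by A_52_P106259, -0.31 by A_52_P674338 and -1.20 by A_52_P56471, of which that by A_52_P674338 was within the error of the measurement. Only A_52_P56471 passed 2-fold here, at 2.30-fold.

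The probes of Egfr parted on the APS plus metformin array. Relative to the aging diabetic array, A_52_P106259 was higher by 0.58 ± 0.16 log2 and A_52_P674338 by 0.89 ± 0.17 log2, while A_52_P56471 differed by -0.80 ± 0.16 log2. A_52_P106259 and A_52_P56471 thus differed by 1.38 ± 0.23 log2 in the same pair of arrays, which shows unequal change of the signals of the 2 probes. Relative to the metformin array, all 3 were higher on the APS plus metformin array, by 2.51-fold, 2.30-fold and 1.31-fold for A_52_P106259, A_52_P674338 and A_52_P56471. It lay below the natural aging array by all 3 probes, 2.54-fold, 5.90-fold and 4.36-fold lower in the same order. With the 3 probes averaged, the APS plus metformin array was 0.97 log2 above the metformin array, just short of 2-fold, and 0.22 log2 above the aging diabetic array. Which Egfr transcripts each probe detects beyond its listed accession was not tested.

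Genes that are more highly expressed in male than in female mouse liver were also lower in the diabetic groups. Of 10 such genes listed, 8 were usable, and 5 of these were at least 2-fold lower on the aging diabetic than on the natural aging array, with a median difference of -1.62 log2. Among all genes compared in this pair, 6.09% were at least 2-fold lower, and 14.3% passed 2-fold in either direction. The organic anion transporter gene Slco1a1 stood at -2.84 on the APS plus metformin, -1.71 on the metformin, -2.32 on the aging diabetic and 2.55 log2 on the natural aging array. Between the APS plus metformin and the aging diabetic array the median of the list was -0.36 log2. There 2 of 6 compared genes were at least 2-fold lower, beside 6.90% of all genes. Hepatocyte markers differed by a median of -0.39 log2 between the aging diabetic and the natural aging array, with none of 6 past 2-fold. Their part in the Egfr difference was not tested, and in whole liver RNA fewer cells of a type and less RNA per cell cannot be told apart.

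Erbb3, which encodes the neuregulin receptor that lacks strong kinase activity, was dim but well above background on every array. Its only probe had -4.02 ± 0.20 log2 on the APS plus metformin array, -4.51 ± 0.24 on the metformin array, -3.59 ± 0.17 on the aging diabetic array and -3.15 ± 0.16 on the natural aging array. Ordered by level (metformin, APS plus metformin, aging diabetic, natural aging), neighbours did not differ beyond their errors, but the metformin array was 2.56-fold lower than the natural aging array, a difference of -1.36 ± 0.29 log2. Its difference from the aging diabetic array was -0.91 ± 0.30 log2, beyond the error and short of 2-fold here, and past 2-fold after quantile normalization, at -1.13.

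Met, the receptor of HGF, was read by 2 probes of 1 transcript accession. The brighter, A_52_P656418, had an outlier spot on the aging diabetic array and was left out of the counts, and its values were 1.96, 1.76, 2.04 (outlier spot) and 2.51 log2 on the APS plus metformin, metformin, aging diabetic and natural aging arrays. The dimmer, A_55_P2830865, had -1.65 ± 0.12, -2.13 ± 0.12, -1.21 ± 0.12 and -0.87 ± 0.12 log2 in that order. Both put the metformin array lowest and the natural aging array highest. The metformin array was lower than the natural aging array by 2.39-fold with A_55_P2830865 and 1.68-fold with A_52_P656418, so only the dimmer probe passed 2-fold. Between the metformin and the aging diabetic array the difference was -0.92 ± 0.17 log2 by A_55_P2830865 and -0.28 ± 0.16 log2 by A_52_P656418.

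Among the ligands of EGFR, Areg differed most. Its probe had a level of -3.90 ± 0.20 log2 on the APS plus metformin array, -0.84 ± 0.12 on the metformin array, -4.53 ± 0.28 on the aging diabetic array and -5.02 on the natural aging array, below the detection limit. In processed intensity these levels were 227, 1999, 133 and 83.4. The metformin array stood far above the others, which lay close to the limit of detection. It was 12.8-fold higher than the aging diabetic array (8.48 to 19.4), a difference exceeded by 19 of 15562 genes compared, and at least 12.8-fold higher than the natural aging array. The APS plus metformin array was 8.34-fold lower than the metformin array (6.12 to 11.4), and 0.62 ± 0.34 log2 above the aging diabetic array, which is within the error of the measurement. No fold is given between the aging diabetic and the natural aging array, because the brighter signal was at the detection limit of the dimmer array. The difference of 3.68 log2 between metformin and aging diabetic became 2.75 log2 with another background correction (normexp).

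Egf, the founding ligand of the family, ran in a similar order at lower contrast. It had -3.77 ± 0.19 log2 on the APS plus metformin array, -2.51 ± 0.13 on the metformin array, -4.29 ± 0.28 on the aging diabetic array and -5.51 on the natural aging array, below the detection limit. The metformin array was highest and was 3.45-fold above the aging diabetic array (2.28 to 5.24) and at least 4.03-fold above the natural aging array. The APS plus metformin array was 2.40-fold lower than the metformin array, or -0.67 log2 with normexp correction, and its difference of 0.52 ± 0.33 log2 from the aging diabetic array was within the error. With normexp background correction the difference of 1.79 log2 between metformin and aging diabetic became 0.88, short of 2-fold.

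Ereg, which encodes epiregulin, a ligand of EGFR and ERBB4, was not well above background on the aging diabetic array alone. It had -4.51 ± 0.26 log2 on the APS plus metformin array, -3.22 ± 0.14 on the metformin array, -6.68 on the aging diabetic array and -3.62 ± 0.20 on the natural aging array. The aging diabetic array was at least 2.19-fold lower than the natural aging array, and the metformin array was at least 2.90-fold higher than the aging diabetic array. Both bounds were within the error of the measurement, which was large for the dim spot. With APS plus metformin Ereg was 2.44-fold lower than on the metformin array, or -0.79 log2 with normexp correction, short of 2-fold. The metformin and natural aging arrays differed by 0.40 ± 0.24 log2, within the error.

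Tgfa, which encodes TGF-alpha, an EGFR ligand made by hepatocytes, varied less. Its levels were -1.34, -0.97, -2.12 and -1.85 log2 on the APS plus metformin, metformin, aging diabetic and natural aging arrays, with errors of 0.12 to 0.13. The metformin array was 2.23-fold higher than the aging diabetic array, and the APS plus metformin array was 1.72-fold higher than it, short of 2-fold. With normexp correction the metformin difference of 1.16 log2 became 0.98. Hbegf, which encodes the heparin-binding EGFR ligand, showed the same order with smaller differences. Its levels were -1.26, -0.94, -1.73 and -1.64 log2, and the metformin array was 1.72-fold above the aging diabetic array. For both genes the aging diabetic and natural aging arrays did not differ beyond the error.

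Btc, which encodes betacellulin, gave no difference past 2-fold. Probe A_51_P138429 was not well above background on any array. Probe A_55_P2822967 had -4.32, -4.16 and -4.10 log2 on the APS plus metformin, metformin and natural aging arrays and was not well above background on the aging diabetic array, at -4.94. The first 3 of these did not differ beyond their errors. The bound for the metformin over the aging diabetic array was at least 1.51-fold, within the error of the measurement.

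Hgf, the ligand of MET, was lowest on the aging diabetic array by both of its probes. Probe A_55_P2507000 had -2.91 ± 0.14 log2 on the APS plus metformin array, -1.99 ± 0.12 on the metformin array, -3.33 ± 0.17 on the aging diabetic array and -2.02 ± 0.13 on the natural aging array. Probe A_51_P484998 had -3.61, -2.93, -4.38 and -3.20 log2 in that order. The metformin and natural aging arrays were alike within the error for both probes. The aging diabetic array was 2.48-fold and 2.27-fold lower than the natural aging array, and the metformin array was 2.53-fold and 2.73-fold higher than the aging diabetic array, by A_55_P2507000 and A_51_P484998. Between the APS plus metformin and the metformin array the difference was -0.92 and -0.68 log2, short of 2-fold. The 2 probes did not differ from each other beyond their errors in any pair of arrays.

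**Figure D2:**
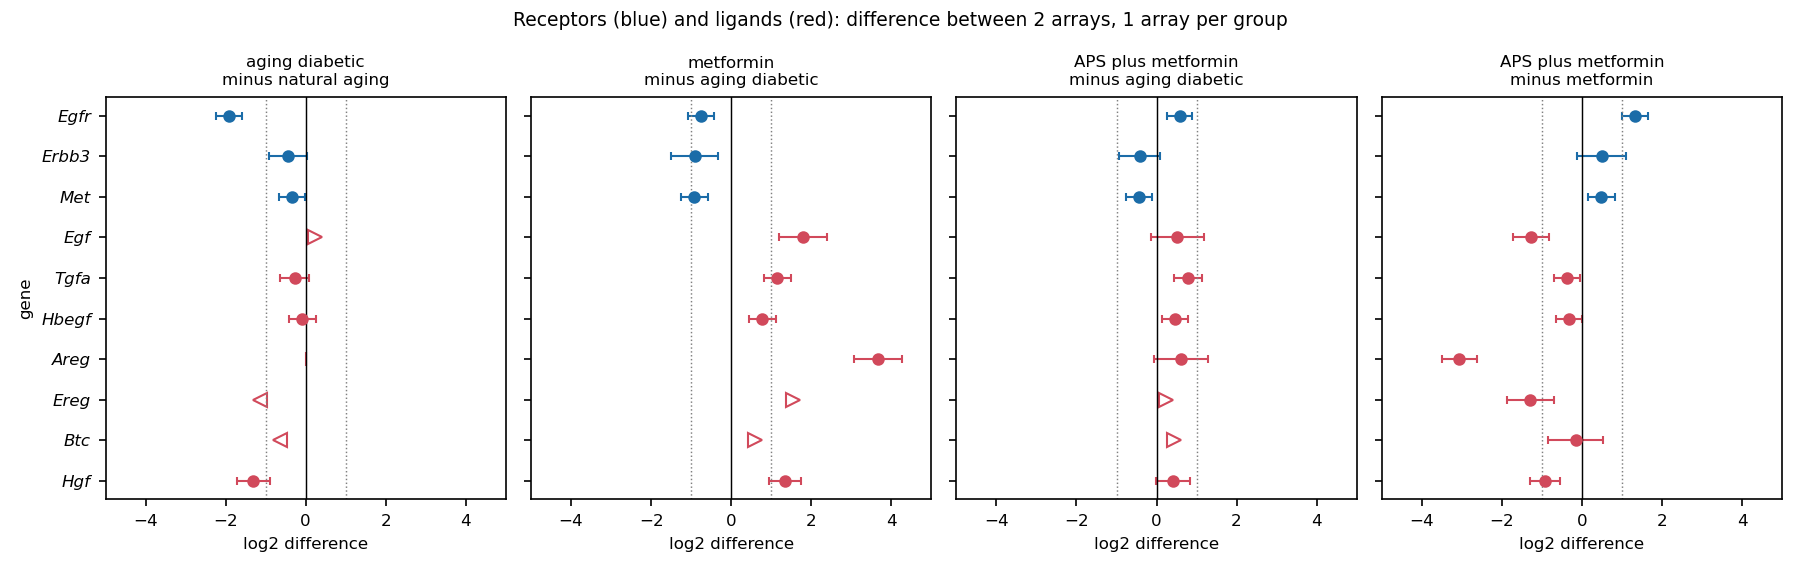
Log2 difference between 2 arrays for each gene, with the probe that stands for it, in 4 comparisons; bars are 95% intervals of the measurement, open triangles are bounds in their direction, a short stroke marks Areg at 0 where no fold is given, and dotted lines mark 2-fold. Receptors are blue and ligands red; on the metformin against the aging diabetic array the 3 receptors lie left of 0 and the 7 ligands right of it.

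Counted over the 10 genes, the aging diabetic array had 3 at least 2-fold lower than the natural aging array (Egfr, Ereg and Hgf) and none higher, against 6.09% lower and 8.20% higher among 14453 genes compared, or 14.3% in either direction. The median of the 10 differences was -0.39 log2, beside -0.04 over all genes. The metformin array had 5 of the 10 at least 2-fold higher than the aging diabetic array (Egf, Tgfa, Areg, Ereg and Hgf) and none lower, where 11.9% of 15562 genes were higher and 3.53% lower, or 15.4% in either direction. The median was 0.97 log2 for the 10 genes and within 0.01 of 0 for all genes. No member passed 2-fold in either direction between the APS plus metformin and the aging diabetic array, where 4.38% of 14734 genes were higher and 6.90% lower, or 11.3% in either direction. The APS plus metformin array had Egfr at least 2-fold higher and Egf, Areg and Ereg lower than the metformin array, beside 2.37% higher and 12.4% lower among 15599 genes, or 14.8% in either direction. These comparisons share arrays, so a high or low array enters several of them. Since the genes were chosen with these values known, the shares are given for scale and nothing is read from the excess.

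The treated arrays were also set beside the natural aging array. By the probe that stands for each gene, the metformin array had all 3 receptors at least 2-fold lower (Egfr by 6.38-fold) and Egf and Areg higher. The brighter Met probe, A_52_P656418, was 1.68-fold lower in this pair, short of 2-fold. Of 15548 genes, 4.71% were lower and 13.0% higher, or 17.7% in either direction. The APS plus metformin array had Egfr alone lower and no member higher, where 6.68% of 14634 genes were lower and 6.14% higher, or 12.8% in either direction.

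**Figure D3:**
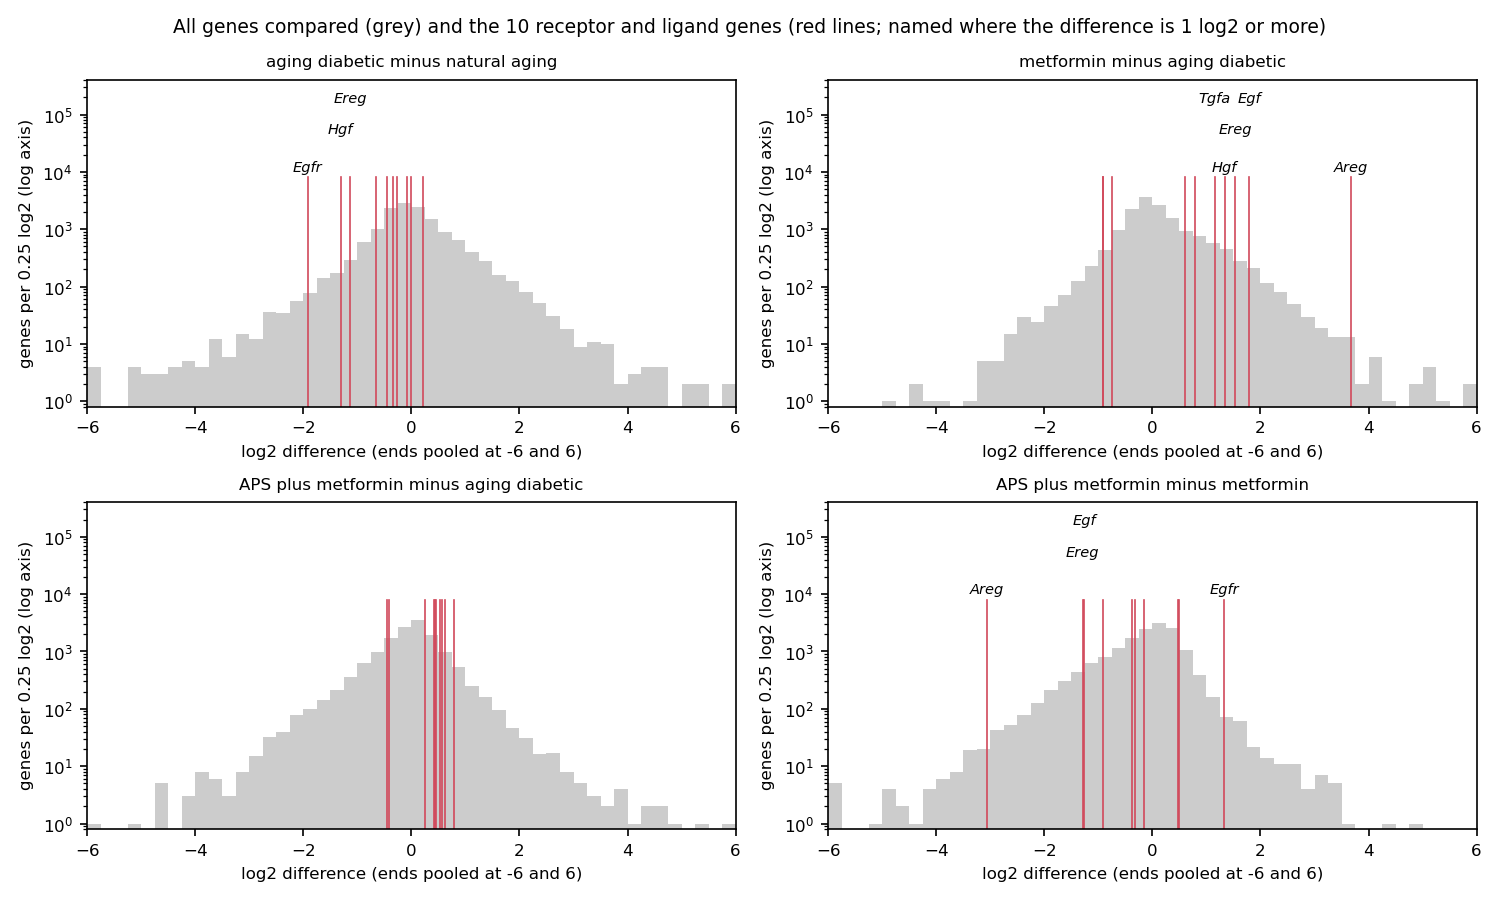
Number of genes (log axis) by log2 difference between 2 arrays in steps of 0.25 for all genes compared, with the 10 receptor and ligand genes as red lines, named where they differ by 1 log2 or more. Areg lies in the far right tail on the metformin against the aging diabetic array, and in the left tail on the APS plus metformin against the metformin array.

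The rest of the pathway was taken from lists by role. Of the 7 other ERBB receptor and ligand genes, 4 could be compared, and Erbb4, Epgn and Nrg3 were not well above background on either array of any pair. Erbb2, the partner receptor without a known ligand, was at least 2.59-fold higher on the metformin than on the aging diabetic array. Nrg1, a ligand of ERBB3 and ERBB4, had -0.39, 0.10, -1.76 and -1.64 log2 on the APS plus metformin, metformin, aging diabetic and natural aging arrays, and was 3.61-fold higher on the metformin and 2.58-fold higher on the APS plus metformin array than on the aging diabetic array. Nrg4, a ligand of ERBB4, went the other way on the metformin array alone, with 2.14, 0.68, 2.21 and 1.64 log2, 2.90-fold lower on the metformin than on the aging diabetic array. Of the 5 genes for shedding of EGF-family ligands, among them the protease gene Adam17, 4 were usable and none passed 2-fold in any of the 4 comparisons. Between 11.3% and 15.4% of all genes did so in these comparisons, in either direction.

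Genes that control activation of HGF included several with higher values on the metformin array. On the metformin array 4 of 11 were at least 2-fold higher than on the aging diabetic array and none lower. The shares over all genes were 11.9% higher and 3.53% lower. St14, which encodes the HGF-cleaving protease matriptase, had -3.14 log2 on the APS plus metformin, -0.33 on the metformin and -3.27 on the aging diabetic array. For natural aging, its probe was not well above background. It was 7.64-fold higher on the metformin than on the aging diabetic array and 7.01-fold lower on the APS plus metformin than on the metformin array. Plau, the urokinase gene, was higher by 1.59 log2 and Plaur, the gene of its receptor, by 1.28 log2 on the metformin than on the aging diabetic array. The genes of the HGF activator (Hgfac), hepsin (Hpn) and the inhibitor Spint2 differed by -0.58 to 0.39 log2 in the 4 comparisons.

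Adaptors and kinases that link the receptors to ERK, AKT and STAT3 differed little. Of 23 listed, 17 were usable, and none passed 2-fold in any of the 4 comparisons, with medians between -0.09 and 0.09 log2. In either direction, 11.3% to 15.4% of all genes passed 2-fold in these comparisons. The adaptor and kinase genes Grb2, Gab2, Sos2, Map2k1, Pik3ca and Pik3r1 had no usable probe.

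Many inhibitors of the receptors and of ERK are induced by the ERK cascade itself. On the aging diabetic array, 5 of 15 compared were at least 2-fold lower than on the natural aging array and 1 was higher. The median was -0.59 log2. Among all genes compared in this pair, 6.09% were lower and 8.20% higher. Dusp5 among the lower ones and Dusp4, the higher one, were bounds, at least 2.12-fold and 2.76-fold. Socs3, an inhibitor of cytokine receptor signalling, was 6.13-fold lower, Spry4 was 3.31-fold lower and Spred1 was 2.19-fold lower. Spry1, a Sprouty inhibitor of receptor tyrosine kinase signalling, had -0.62 log2 on the APS plus metformin, -0.07 on the metformin, -2.11 on the aging diabetic and -1.10 on the natural aging array. It was 4.10-fold higher on the metformin and 2.81-fold higher on the APS plus metformin than on the aging diabetic array. Errfi1, a direct inhibitor of EGFR, differed by at most 0.40 log2 in these comparisons.

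Genes that the ERK cascade induces had the lowest median of the pathway lists on the diabetic against the natural aging array, at -0.73 log2. In this list 4 of 9 were at least 2-fold lower and none higher, beside 6.09% lower and 8.20% higher among all genes. On the metformin array 5 of 10 were at least 2-fold higher than on the aging diabetic array, beside 11.9% of all genes. The median was 0.99 log2. Egr1, an immediate-early transcription factor gene, had -1.85, 0.15, -2.73 and 0.89 log2 on the APS plus metformin, metformin, aging diabetic and natural aging arrays. Fos had -1.60, -0.61, -2.85 and -1.29, and Fosb -3.52, -2.20, -4.13 and -2.50. These 3 genes were lowest on the aging diabetic array. Myc was also lowest there, with -0.20, -0.82, -1.94 and -0.30 log2, and it was 3.33-fold higher on the APS plus metformin than on the aging diabetic array.

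**Figure D4:**
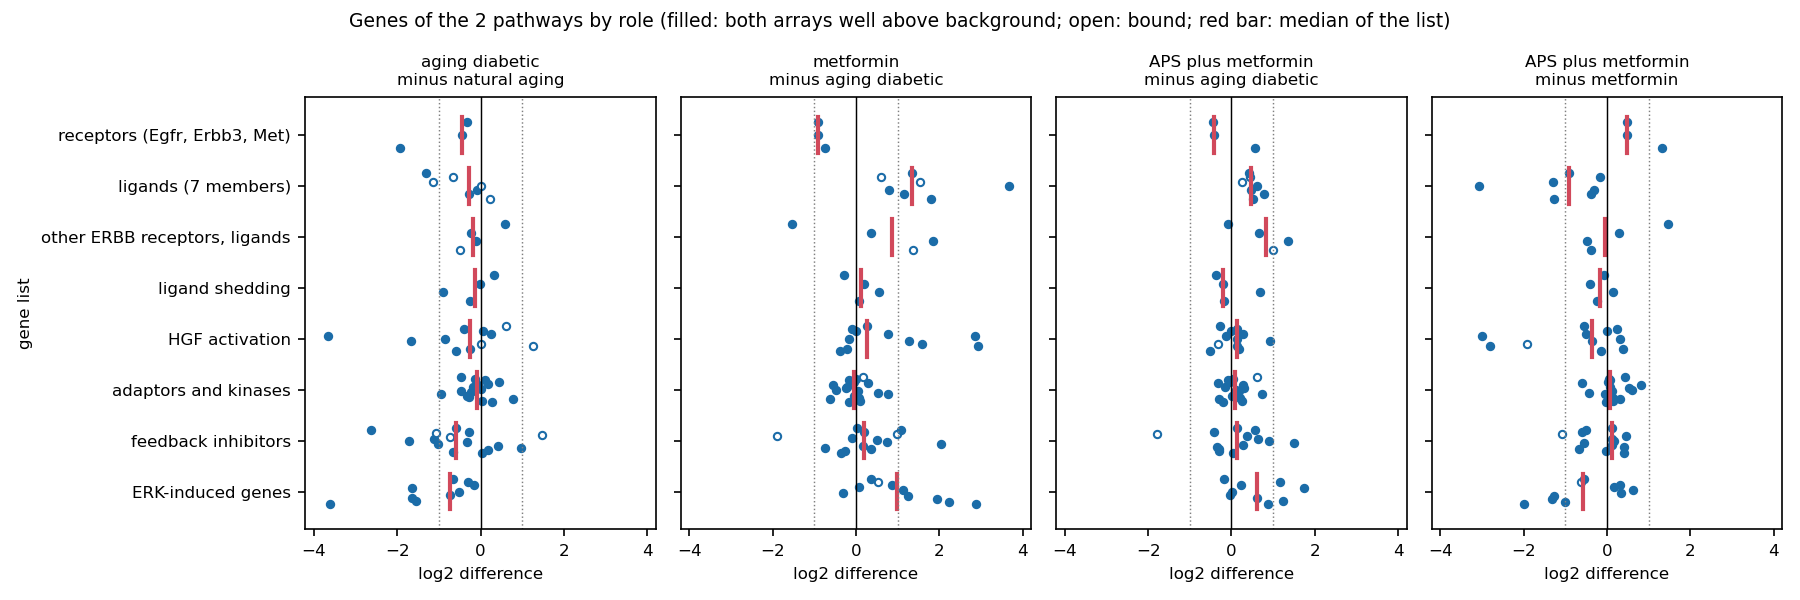
Log2 difference between 2 arrays for each gene of the pathway lists (points, open where the value is a bound) with the median of each list (red bar) in 4 comparisons; dotted lines mark 2-fold. Adaptors and kinases stay within 2-fold throughout, and ERK-induced genes have a median of -0.73 on the diabetic against the natural aging array and 0.99 on the metformin against the aging diabetic array.

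Markers of other cells differed between the same arrays and stand beside the ligand values. Of 8 stellate and mesenchymal markers 7 were usable, and 4 of 6 compared were at least 2-fold higher on the metformin than on the aging diabetic array. The share over all genes was 11.9%. The summed signal of these markers, in units of the 75th percentile of the array, was 14.9, 19.6, 9.76 and 18.02 on the APS plus metformin, metformin, aging diabetic and natural aging arrays. Single markers differed in their order. Pdgfrb, a receptor of stellate cells and pericytes, had -0.97, -0.08, -2.61 and -0.38 log2, lowest on the aging diabetic array. The collagen gene Col1a1 had -1.85, 0.70, -1.21 and -0.49 log2, lowest on the APS plus metformin array. The stellate cell gene Reln was not well above background on any array, and Lrat had no usable probe.

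Lymphocyte markers were at least 2-fold higher on the metformin than on the aging diabetic array for 5 of 6 compared, with summed signals of 0.70, 3.52, 0.46 and 1.38 in the order of arrays used above, and the B cell gene Cd79a was not well above background on any array. Among all genes, 11.9% were at least 2-fold higher in this pair. Of 7 macrophage markers compared, 2 were higher there, the recruited-monocyte genes Ccr2 and Cx3cr1, and the summed signals were 21.8, 33.3, 24.7 and 37.5. Cholangiocyte markers summed to 1.30, 2.66, 1.89 and 2.70, and endothelial markers to 20.2, 20.6, 17.0 and 24.3. Genes of the exocrine pancreas summed to 0.17, 10.1, 2.44 and 46.4, with all 6 compared at least 2-fold lower on the aging diabetic than on the natural aging array and higher on the metformin than on the aging diabetic array. Across all genes, 6.09% were lower in the first pair and 11.9% higher in the second. The 6 hepatocyte markers summed to 88.3, 68.5, 83.5 and 101.9 and differed by -0.38 to -0.11 log2 between the metformin and the aging diabetic array. The part of these cell types in the receptor and ligand differences was not tested.

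The genes nearest in pattern to the receptors and to Hgf were found over the 4 arrays among 12688 genes well above background on all of them, by the distance between mean-centred log2 values. For Egfr they were Maff, a small MAF transcription factor gene, at a distance of 0.32 log2, Gm35082 at 0.35 and Riok2, which acts in ribosome maturation, at 0.37. For Erbb3 they were Map3k7, which encodes the kinase TAK1, at 0.05, the spermidine synthase gene Srm at 0.06 and Met at 0.09. For Met they were Cerkl at 0.03, Erbb3 at 0.09 and Map3k7 at 0.09, so Erbb3 and Met were among the nearest of each other, with centred levels of -0.20 and -0.19 on the APS plus metformin, -0.69 and -0.66 on the metformin, 0.22 and 0.26 on the aging diabetic and 0.67 and 0.59 log2 on the natural aging array. For Hgf they were Relb, a subunit of NF-kappa-B, at 0.10, Lpcat2 at 0.12 and Prkar2b at 0.13. The likeness rests on 4 arrays, the same ones for every gene. For Met only the dimmer probe, A_55_P2830865, entered it. The distances from Erbb3 and from Met were smaller than the errors of their spots, 0.16 to 0.24 and 0.12 log2. Those from Hgf were of the size of its errors, 0.12 to 0.17 log2, or smaller. The ranking of the neighbours of Erbb3, Met and Hgf is thus not resolved.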

How the data were processed

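Whole liver RNA of 4 groups was measured on 1 array each, in the red channel of a 1-colour design. The authors deposited array files with red spot intensity from Agilent Feature Extraction, processed by background subtraction and spatial detrending, version 11.5.1.1 per the file headers and 10.7 per the submitters' processing notes. They also deposited a series table of log2 values, normalized between arrays by a method not given in the sources used here, which served as an alternative. Other columns used are flags of 0 or 1 and the error of the signal, per the file headers.

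With Python 3.11.15, numpy 2.4.6 and pandas 2.3.3, log2 of the processed signal minus the 75th percentile of each array (3406 on the APS plus metformin, 3589 on the metformin, 3068 on the aging diabetic and 2700 on the natural aging array) was taken. Outlier-flagged spots were dropped, and repeated spots of 300 probes were averaged. Accessions without versions were matched to RefSeq transcripts (33767 of 56605 probes, 23462 symbols). The usable probe with the highest mean stood for a gene in counts and lists, and every member probe is shown. Genes were compared where at least 1 of 2 arrays was well above background. No test was run, since 1 array per group leaves no residual degrees of freedom. The procedure was tested on simulated data. Number of arrays and measurement error limit the precision.

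Named genes are all members and up to 4 genes per pathway list with the largest difference past 1 log2 on arrays well above background. They also include the 3 nearest patterns of Egfr, Erbb3, Met and Hgf, and up to 3 markers per list. Adam17, Errfi1, Dusp4, Dusp5, Hgfac, Hpn, Spint2, Erbb2, Erbb4, Epgn, Nrg3, Col1a1 and genes without a usable probe were named after their values were seen. A gene that the rule would name is not reported here. Members and lists were chosen with earlier results of these data known. RefSeq upstream windows of 7 of the 10 members were used. limma 3.58.1 in R 4.3.3 gave the normexp correction. Alternatives were quantile normalization, normexp, outlier spots kept, all detected probes averaged, the series table, another percentile, other detection filters and a 1.5-fold threshold.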

Additional observations from a re-analysis of the deposited data

How the results depend on the processing

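In the 4 main comparisons, of 12 member differences of 1 log2 or more, 12 kept their sign under each alternative run for them. Of 312 recomputed member differences, 304 stayed within the 95% interval of the measurement. Counts of members within 1.5 times of the reported ones are left out here, except that requiring both arrays well above background removed Ereg, a bound, and left 2 lower for diabetic against natural aging and 4 higher for metformin against aging diabetic. The other counts moved as follows. For the metformin against the aging diabetic array, 3 in place of 5 were at least 2-fold higher with normexp correction (Egf at 0.88 and Tgfa at 0.98 log2, Areg at 2.75), and 1 in place of 0 lower, Erbb3, after quantile normalization and in the authors' series values, with 3 lower at 1.5-fold. For APS plus metformin against metformin, Egfr was the only one higher and fell to 0.97 log2, leaving 0, when its probes were averaged, and 1 in place of 3 was lower with normexp correction (Areg at -2.33, Egf at -0.67). Without a detection filter, Egf made 1 higher for the diabetic against the natural aging array and Ereg 1 higher for APS plus metformin against aging diabetic, where 2 were higher at 1.5-fold. The normexp correction used the median spot signal and was chosen after seeing the data, as the files hold no mean signal, so the planned version was not run. Averaging probes gave 0.22 log2 for Egfr on the APS plus metformin against the aging diabetic array, and outlier spots kept gave -0.28 for Met on the metformin against the aging diabetic array. Differences under 0.2 log2 turned sign for Hbegf (0.002 for the diabetic against the natural aging array, with the percentile over spots well above background) and Btc (0.03 at most for APS plus metformin against metformin). That percentile moved the median of all genes to -0.15 log2 in the last comparison. Over all genes, no detection filter gave 2132, 3076, 1107 and 631 higher and 1363, 819, 1536 and 3161 lower in the 4 comparisons as listed in the report, against 1185, 1851, 646 and 370 higher and 880, 549, 1017 and 1939 lower. The 1.5-fold threshold gave 2377, 3230, 1755 and 1334 higher and 2069, 1481, 2212 and 3444 lower. Areg, Ereg, Egf, Btc and Erbb3 lie near background on several arrays, which limits their ratios. No paired analysis was possible because each group has 1 array.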
